A study of Mus musculus with 6 samples.

Results

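The genes described are the constitutive subunits of the proteasome together with Nfe2l1, the transcription factor best known for controlling them. They were chosen by gene symbol and found through the gene identifiers in the tables, and they number 32 of 17254 genes with a count in any library. Of these, 14 encode the core particle, with 7 alpha (Psma) and 7 beta (Psmb) subunits, and 17 encode the regulatory particle, with 6 ATPase (Psmc) and 11 non-ATPase (Psmd) subunits. All 32 were listed in every library, and all 32 passed the filter on low values.

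The proteasome degrades proteins that carry ubiquitin chains. Its core is a barrel of stacked rings in which alpha subunits gate the entry and beta subunits cut the substrate, and the regulatory particle on its ends recognises ubiquitin, unfolds the substrate and feeds it in. NFE2L1 is made at the endoplasmic reticulum, is normally degraded by the proteasome, and raises subunit transcription when proteasome activity falls, while oxidant damage adds misfolded proteins to the load, and neural progenitors depend on the same system to turn over cell-cycle and fate regulators.

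RNA was sequenced from mouse neural stem and progenitor cells (NSPCs) that were untreated, exposed to paraquat (PQ), a herbicide that makes superoxide by redox cycling, or given N-acetylcysteine (NAC), a thiol antioxidant, for 48 h. Each group held 2 libraries, and the comparisons ask how an oxidant and an antioxidant alter expression. The methods describe an immortalized Ink/Arf-/- culture from neonatal mice, grown in N2 medium with EGF and bFGF. Judged there by lineage transcripts, it mixed precursors of oligodendrocytes and neurons with stem cells, some active and some relatively quiescent. The labels of control 1 and PQ 1, called label set A, give C57BL/6 mice, the genotype as "Ink/Ark knockout", and 5 µM paraquat. The labels of control 2, PQ 2, NAC 1 and NAC 2, called label set B, give the treatment and its length but no genotype, strain or dose, and name another RNA extraction reagent and another sequencer. Both NAC libraries belong to set B, whose only control is control 2. Nothing in the labels says that libraries of a group were separate cultures, so p-values measure the spread between these samples only.

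Total expected counts were 9849392 and 10040827 in control 1 and 2, 10388731 and 9680436 in PQ 1 and 2, and 10698241 and 9907726 in NAC 1 and 2. Replicates differed by more than counting error. On 1 degree of freedom the mean chi-square per gene was 7.33 for the controls, 4.35 for PQ and 4.99 for NAC. This measure covers counting error only, with reads taken as independent, and the control and PQ pairs also span both label sets. Cdkn2a and Cdkn2b, the genes of the Ink/Arf locus, had counts in all 6 libraries, at summed levels of 22.6 to 32.1 FPKM (fragments per kilobase of transcript and scaled to the fragments of its library). Gene totals do not show which exons the reads came from, so they do not test the deletion. Of 8 progenitor markers, all 8 were tested, and Vim was the most abundant of them. Microglial markers summed to 0.55 to 1.24 FPKM and endothelial markers to 0.16 to 0.54 FPKM, so these cells were near the floor of detection in every library. In bulk RNA, fewer cells of a type and less RNA per cell cannot be told apart.

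Proteasome genes were among the higher expressed genes of these cells. On the FPKM scale, means over the 6 libraries ran from 42.0 for Psmb5, at percentile 82.5 of the genes tested, to 205 for Psmb1, at percentile 97.4. Psmb1, a beta subunit without a cutting site of its own, was followed on that scale by Psma4, an alpha-ring subunit, at 185 FPKM and by Psmb7, the subunit with trypsin-like activity, at 153 FPKM. The lowest levels after Psmb5 were 59.8 FPKM for Psmd3, a scaffold subunit of the regulatory lid, and 64.0 FPKM for Psmd11, another lid scaffold. Psma4 spanned 155 to 208 FPKM between the 2 controls, so it cannot be ranked apart from its neighbours in the order, Psmb1 and Psmb7. Nfe2l1 stood at 72.6 FPKM, at percentile 90.9.

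**Figure D1:**
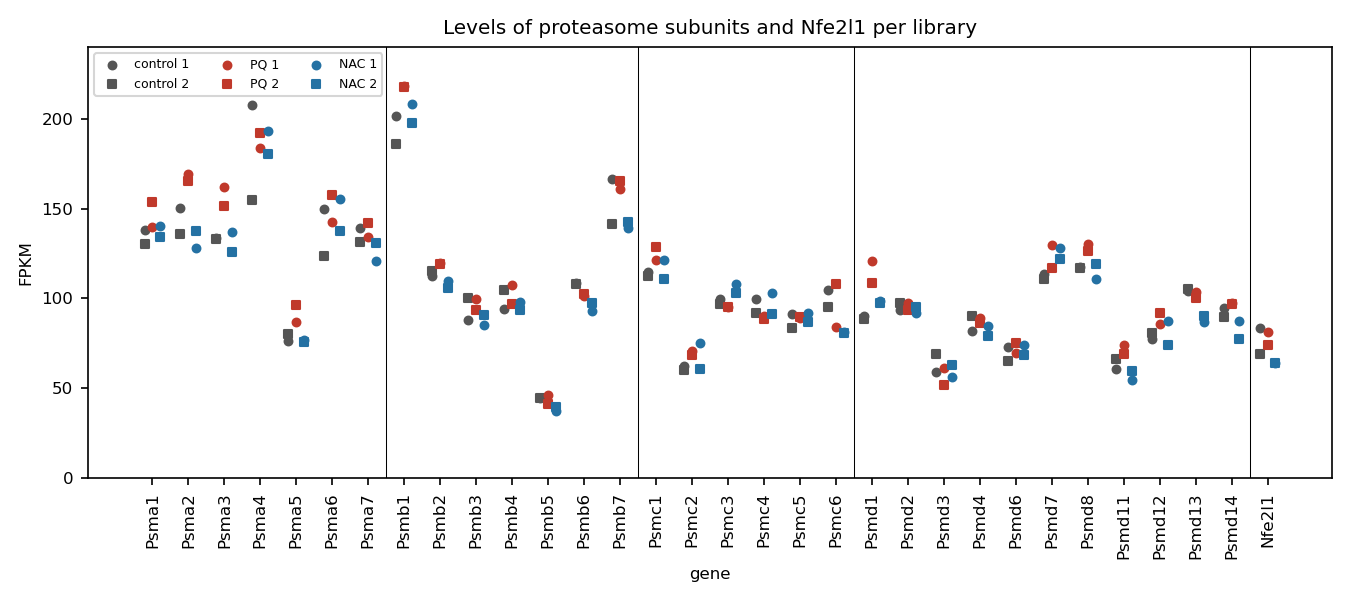
FPKM (vertical axis) of each of the 32 genes in each of the 6 libraries, with alpha, beta, ATPase and non-ATPase subunits and Nfe2l1 separated by lines. Psmb1 is highest and Psmb5 lowest by mean, and levels differ more between genes than between the libraries of a gene.

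Core genes were expressed above regulatory genes per length in every library. The median FPKM of the 14 core genes was 136 and 127 in control 1 and 2, 137 and 147 in PQ 1 and 2, and 124 and 128 in NAC 1 and 2. The median FPKM of the 17 regulatory genes was 93.7 and 90.1 in the controls, 90.3 and 93.6 in PQ, and 87.5 and 86.6 in NAC. The ratio of these FPKM medians was 1.45 and 1.41 in the controls, 1.52 and 1.57 in PQ, and 1.42 and 1.48 in NAC. Both PQ ratios lay above both control and both NAC ratios, while the control and NAC ratios overlapped, and no test was made on this ratio. It rests on list medians, and gene by gene the classes moved alike. Their median log2 changes in PQ against control were 0.0508 for core and 0.0467 for regulatory genes. Summed FPKM of core genes was 1871 and 1894 in PQ, beside 1810 and 1689 in the controls. For regulatory genes the sums were 1608 and 1594 in PQ, beside 1537 and 1519 in the controls. The FPKM summed over all 31 subunits was 3347 and 3208 in the controls, 3480.0 and 3488 in PQ, and 3261 and 3164 in NAC, so both PQ sums were the highest and the control and NAC sums overlapped.

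NFE2L1 binds DNA as a pair with a small MAF protein at the antioxidant response element, whose core is TGACNNNGC, a sequence that related factors also bind. RefSeq promoter sequences on build GRCm38.p6, from 250 bases before to 50 bases after the start, were matched to 26 of the 32 genes. The genes missing from that table were Psmb1, Psmb2, Psmb7, Psmc3, Psmd3 and Psmd7. On either strand, TGACNNNGC was found in 4 of the 26 genes (15.4%), beside 3781 of the 27025 genes with a promoter and 16.9% of the genes tested that had one, and it was in 12.4% of all 32851 promoters. These letters were therefore about as frequent in the promoters of proteasome genes as in others, and a match is a description of sequence only. The 4 stretches are shown because 3 of them belong to genes whose values are given below, the catalytic subunits Psmb5 and Psmb6 and the ATPase Psmc6. Capitals mark the match, which lies on the other strand in Psmd12 and Psmc6.
Psmb5: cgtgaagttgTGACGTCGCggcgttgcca
Psmb6: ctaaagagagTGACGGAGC
Psmc6: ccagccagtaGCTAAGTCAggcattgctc
Psmd12: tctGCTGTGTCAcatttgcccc
The Psmb5 stretch is chr14:54618024-54618052 on the minus strand, with the match from -47 to -39 counted from the start site. The other stretches are on the plus strand, at chr11:70525338-70525356 for Psmb6 (-9 to -1), chr14:45329587-45329615 for Psmc6 (-227 to -219) and chr11:107479278-107479299 for Psmd12 (-247 to -239). CCAAT, a common promoter box, was in 11 of the 26 genes (42.3%), beside 41.1% of all genes, and in 37.4% of all promoters. CCGGAAG, a core bound by ETS factors, was in 10 of the 26 (38.5%), beside 9.93% of all genes and 21.3% of the genes tested, and in 8.86% of all promoters. The genes with CCGGAAG were Psma6, Psmc1, Psmc2, Psmc6, Psmd2, Psmd4, Psmd6, Psmd11, Psmd12 and Psmd13.

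The comparison of PQ with control asks how the oxidant altered proteasome transcripts, and it left most of them close to control. A single subunit rose, Psmd1, the large scaffold of the regulatory base that receives ubiquitin receptors. The 32 genes stood at a median log2 change of 0.05, with 24 above and 8 below 0, while the median was 0.00 over all 11717 genes tested and -0.04 over the 2055 genes expressed at or above the lowest of the 32. In this comparison 1 of the 32 genes (3.12%) passed an adjusted p of 0.05 by edgeR's quasi-likelihood test, Benjamini-Hochberg adjusted over all genes tested, beside 19.2% of all genes tested (2250, with 1143 higher and 1107 lower). Among the 2055 genes at or above the lowest proteasome gene in mean FPKM, 23.6% passed. Without PQ 1 the count over all genes was 866, and the count over the 32 was 0.

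Psmd1 had 3048 and 2953 normalized counts in control 1 and 2, 3939 and 3620.4 in PQ 1 and 2, and 3219 and 3146 in NAC 1 and 2. Both PQ libraries lay above all 4 others, with no overlap. Psmd1 rose 1.26-fold, a log2 fold change of 0.33 with a 95% interval of 0.15 to 0.52 (adjusted p = 0.0135 by edgeR's quasi-likelihood test, Benjamini-Hochberg adjusted). The single-library log2 ratio was 0.37 in label set A and 0.29 in label set B. With label set as a replicate block the adjusted p was 0.0248, but without PQ 1 it was 0.185 and the call was lost.

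No core gene passed in PQ against control. By edgeR's quasi-likelihood test 0 of the 14 were called, beside 19.2% of all genes tested. Of the 14, 1 (Psma3) had an unadjusted p under 0.05, and DESeq2 and limma called 0 as well. Core genes stood at a median log2 change of 0.05, with 12 above and 2 below 0. The 7 alpha genes, which form the outer gate, were all above 0 with the libraries pooled, with a median of 0.11. All 7 were above 0 in label set B, but in label set A Psma1 (-0.03), Psma4 (-0.23), Psma6 (-0.12) and Psma7 (-0.10) were below 0. Psma2, Psma3 and Psma5 stood clear of the controls, although none was called. Psma3 had 1959.5 and 1926 normalized counts in the controls, 2299 and 2187 in PQ, and 1943 and 1769 in NAC. Both of its PQ libraries lay above the other 4, with a log2 fold change of 0.21 against control and an interval of 0.01 to 0.40 (edgeR adjusted p = 0.131). The 7 beta genes had a median of 0.02, with 5 above and 2 below 0.

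The 3 beta subunits that cut peptides were near control under PQ. Psmb5, with chymotrypsin-like activity, had 389 and 385 normalized counts in the controls, 388 and 352 in PQ, and 316 and 331 in NAC. Control and PQ overlapped, and the NAC libraries lay below all others. Against control, Psmb5 differed in PQ by -0.06 on the log2 scale, with an interval of -0.30 to 0.18, and its expected counts were not whole numbers in 5 libraries. Psmb6, with caspase-like activity, had 1139 and 1121 in the controls, 1026 and 1058 in PQ, and 943 and 979 in NAC. Both PQ libraries were below both controls and above both NAC libraries, with a log2 fold change against control of -0.12 and an interval of -0.31 to 0.08. Psmb7 had 1626 and 1370.3 in the controls, 1521 and 1596 in PQ, and 1319 and 1334 in NAC. Its PQ libraries fell between the controls, with a log2 fold change of 0.06 and an interval of -0.15 to 0.27. Of these 3 values, that of Psmb5 was 0.01 without PQ 2 and -0.13 without PQ 1. That of Psmb7 was -0.06 without control 2, 0.19 without control 1, 0.02 without PQ 2 and 0.09 without PQ 1, so neither has a fixed sign.

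In PQ against control, regulatory genes stood at a median log2 change of 0.05, with 11 above and 6 below 0. Psmd1 was the 1 called of the 17 (5.88%, beside 19.2% of all genes tested). The 6 ATPase genes, whose products form the unfolding motor, had a median of -0.03 with 3 above and 3 below 0. The 11 non-ATPase genes had a median of 0.05 with 8 above and 3 below 0. The lowest value of all 32 genes was the -0.21 of Psmd3, which had 1313 and 1521 normalized counts in the controls and 1324 and 1133 in PQ, so the groups overlapped. With the 4 libraries of label set B alone, a choice made after seeing the data, Psmd3 was the single gene called and Psmd1 was not, at an adjusted p of 0.207.

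Each interval gives the range of change that the fit allows for a gene taken singly. It holds only the spread between these libraries, and the intervals were not widened for reading all 32 together. In PQ against control the 95% intervals of all 32 genes lay within a 1.5-fold change in either direction, from 0.741-fold (Psmd3) to 1.44-fold (Psmd1). The PQ libraries were above both controls for 12 of the 32 genes and below both for 4, beside 3424 above and 3361 below of the 11717 genes tested. The median absolute log2 fold change of the 32 genes was 0.09, beside 0.19 over all genes tested and 0.15 over the 2055 genes expressed at or above the lowest of them.

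**Figure D2:**
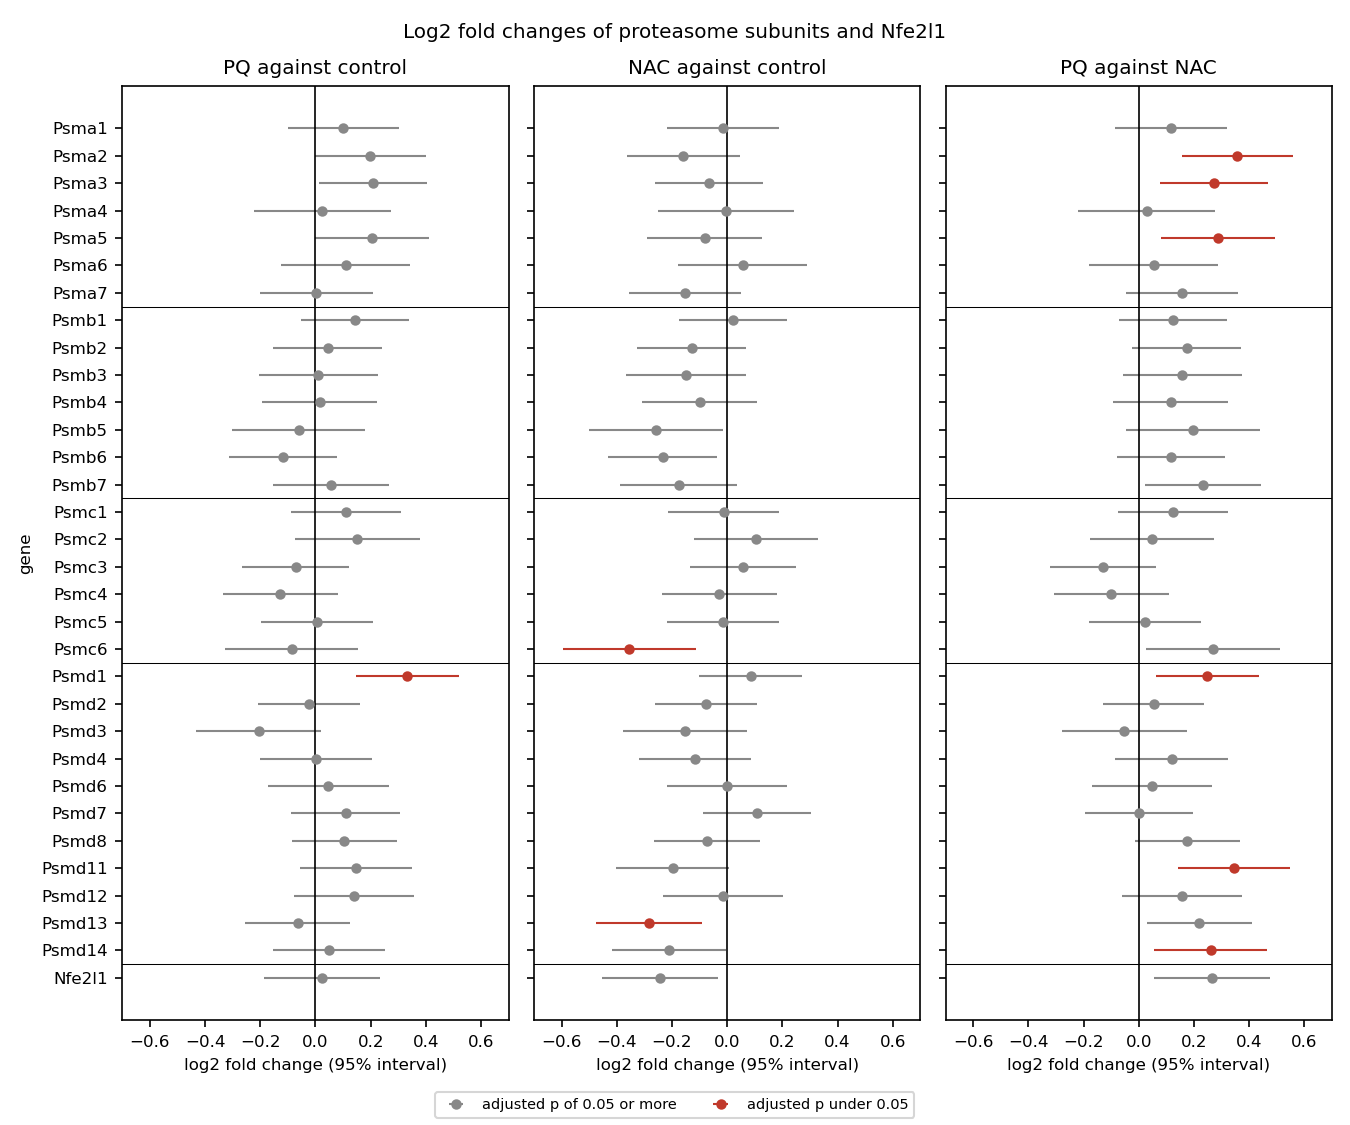
Log2 fold change (horizontal axis) with 95% interval for each of the 32 genes in the 3 comparisons, coloured by whether the adjusted p was under 0.05. In PQ against control 1 gene is coloured, in NAC against control 2, and in PQ against NAC 6.

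Values this small differed between the label sets. Each set holds a single control and a single PQ library, so label set and replicate cannot be told apart here. Within label set A, PQ was above control for 17 of the 32 genes with a median log2 ratio of 0.01, and within label set B for 22 of 32 with a median of 0.11. Both sets gave a ratio above 0 for 12 genes and below 0 for 5, and 15 genes had opposite signs. The median absolute log2 ratio between control 1 and control 2 was 0.10, and the median absolute log2 fold change of PQ against control was 0.09. The first compares single libraries and the second is fitted over 2 libraries per group, so their sizes are not directly comparable. The core median was 0.17 without control 1, 0.08 without PQ 1 and 0.03 without PQ 2. The regulatory median was 0.09 without control 1 and 0.01 without control 2 or PQ 2, so the position of these medians rests on single libraries.

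The comparison of NAC with control asks what the antioxidant altered, and here a pair of regulatory subunits was lower. Psmc6, an ATPase of the motor ring, and Psmd13, a lid subunit, fell. The 32 genes stood at a median log2 change of -0.08, with 6 above and 26 below 0, beside 0.00 over all genes tested and -0.05 over the 2055 genes expressed at or above the lowest of them. In this comparison 2 of the 32 genes (6.25%) passed an adjusted p of 0.05 by edgeR's quasi-likelihood test, Benjamini-Hochberg adjusted, beside 18.7% of all genes tested (2186, with 1056 higher and 1130 lower). Among the 2055 genes at or above the lowest proteasome gene in mean FPKM, 24.5% passed. Over all genes the count was 1259 without NAC 1 and 1427 without NAC 2, and over the 32 it was 0 without control 1, NAC 1 or NAC 2, 1 without PQ 1 or PQ 2, and 2 without control 2, of which 1 was Nfe2l1.

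Psmc6 had 1679.8 and 1507 normalized counts in control 1 and 2, 1299.7 and 1704 in PQ 1 and 2, and 1257 and 1234 in NAC 1 and 2. The NAC libraries were the lowest of the 6, while the PQ libraries fell on either side of the controls. Psmc6 fell by 0.35 on the log2 scale in NAC, with an interval of -0.60 to -0.11 (adjusted p = 0.0379 by edgeR's quasi-likelihood test, Benjamini-Hochberg adjusted). The call was lost without control 1 (adjusted p = 0.147), without NAC 1 (0.134) and without NAC 2 (0.159), by limma (0.124 and 0.123) and in label set B alone (0.13), and over the alternatives of this result the adjusted p ran from 0.0069 to 0.159. In PQ against control its log2 fold change was -0.09, with single-library ratios of -0.37 in label set A and 0.18 in label set B.

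Psmd13 had 1662 and 1662 normalized counts in the controls, 1601 and 1579 in PQ, and 1348 and 1383 in NAC. Both NAC libraries lay below all 4 others, and the PQ libraries lay slightly below the controls. Psmd13 fell by 0.28 on the log2 scale in NAC, with an interval of -0.48 to -0.09 (adjusted p = 0.0359 by edgeR's quasi-likelihood test, Benjamini-Hochberg adjusted). Its log2 fold change stayed between -0.30 and -0.24 under every alternative run. Its adjusted p did not hold when a library was left out, at 0.0779 without control 1, 0.071 without control 2, 0.0615 without PQ 1, 0.0634 without PQ 2, 0.177 without NAC 1 and 0.114 without NAC 2. It did not hold either with label set as a replicate block (0.115), with only the 4 libraries compared (0.0656), by limma (0.0783 and 0.0807) or in label set B alone (0.111). In PQ against control its log2 fold change was -0.06.

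No core gene passed in NAC against control. By edgeR's quasi-likelihood test 0 of the 14 passed, beside 18.7% of all genes tested. Of the 14, 2 (Psmb5 and Psmb6) had an unadjusted p under 0.05, and DESeq2 and limma called 0 as well. The core median was -0.11, with 2 above and 12 below 0, and the 7 beta genes had a median of -0.15. Both NAC libraries lay below both controls for 8 of the 14 core genes and above both for 0. Of the 11717 genes tested, 3306 lay below both controls and 3323 above both. Psmb5 had a log2 fold change of -0.26, with an interval of -0.50 to -0.02 (edgeR adjusted p = 0.133). Psmb6 had -0.23, with an interval of -0.43 to -0.04 (edgeR adjusted p = 0.092). Psmb7 had -0.18, with an interval of -0.39 to 0.04 (edgeR adjusted p = 0.252). The Psmb7 value rests on which control is kept, at -0.05 without control 1 (adjusted p = 0.843) and -0.29 without control 2 (0.0613). All 3 catalytic genes were lower in both NAC libraries than in both controls, with none past the threshold.

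In NAC against control, regulatory genes stood at a median log2 change of -0.03, with 4 above and 13 below 0. That median was 0.02 by limma on log2 FPKM, 0.03 without NAC 2 and -0.08 without NAC 1, so its sign is not fixed by these libraries. ATPase genes had a median of -0.01, and Psmc2, also an ATPase of the motor ring, was the 1 with the highest value among the 6, at 0.10. Non-ATPase genes had a median of -0.08, with 2 above and 9 below 0. Over all 32 genes, both NAC libraries were below both controls for 15 and above both for 2, beside 3306 below and 3323 above of the 11717 genes tested. The 95% intervals lay within a 1.5-fold change for 31 of the 32, the exception being Psmc6 with a lower bound of 0.661-fold. A difference between core and regulatory genes in their response was not tested.

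**Figure D3:**
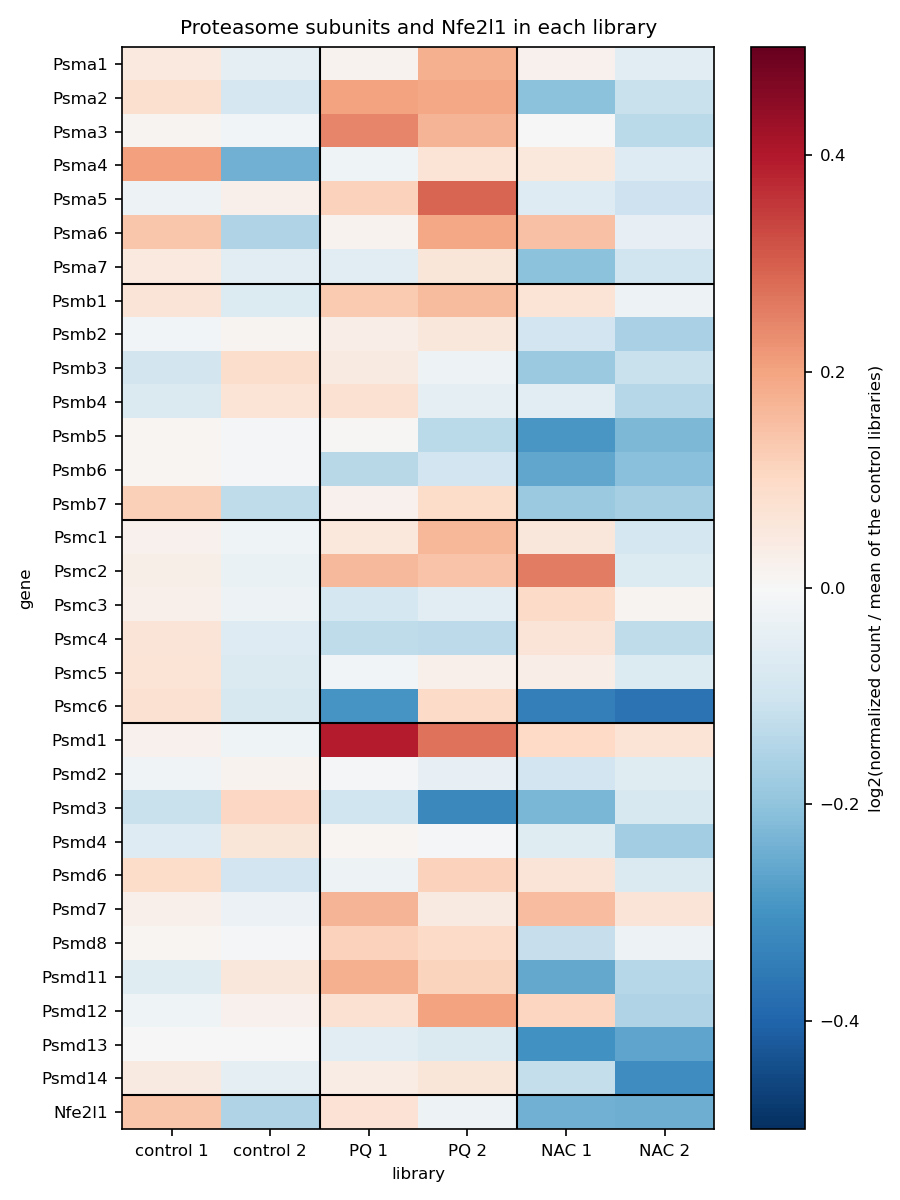
Log2 of normalized counts over the mean of the 2 control libraries (colour) for each gene and library, with lines between the subunit classes and between the groups. Psmd1 is red in both PQ libraries, the darkest of PQ 1, and Psmc6 is darkest blue in both NAC libraries, and the controls differ from each other by amounts like those of many treated libraries.

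Nfe2l1 itself had 3856 and 3157 normalized counts in control 1 and 2, 3683 and 3445 in PQ 1 and 2, and 2966 and 2961 in NAC 1 and 2. The PQ libraries lay between the controls, and both NAC libraries lay below all others. Its log2 change was 0.02 in PQ against control, with an interval of -0.19 to 0.23, and -0.24 in NAC against control, with an interval of -0.45 to -0.03 (edgeR adjusted p = 0.103). In PQ against control the value was 0.18 without control 1, -0.11 without control 2, -0.02 without PQ 1 and 0.07 without PQ 2, so its sign is not fixed. In NAC against control it was -0.38 without control 2 (adjusted p = 0.0114) and -0.09 without control 1 (0.641), so which control is kept decides that call. In PQ against NAC its log2 fold change was 0.27 (edgeR adjusted p = 0.0505), which passed without control 1 or control 2 (0.0183 at the lowest) and reached 0.261 without PQ 1. With label set as a replicate block the log2 change of Nfe2l1 was 0.17 in PQ against NAC (adjusted p = 0.307) and -0.14 in NAC against control (0.49). NFE2L1 is regulated mainly as a protein, through its cleavage and degradation, which transcript counts do not measure.

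PQ against NAC sets oxidant beside antioxidant, and it gave the most called genes of the 3 comparisons. Psma2, Psma3 and Psma5, of the alpha ring, and Psmd1, Psmd11 and Psmd14 rose in PQ relative to NAC, the last being the lid enzyme that removes ubiquitin chains from substrates. The 32 genes stood at a median log2 change of 0.14, with 29 above and 3 below 0, beside 0.00 over all genes tested and 0.03 over the 2055 genes expressed at or above the lowest of them. In this comparison 6 of the 32 genes (18.8%) passed an adjusted p of 0.05 by edgeR's quasi-likelihood test, Benjamini-Hochberg adjusted, beside 31.6% of all genes tested (3708, with 1874 higher and 1834 lower). Among the 2055 genes at or above the lowest proteasome gene in mean FPKM, 37.1% passed. The count over the 32 was 9 without control 1 or control 2, 2 without PQ 1, NAC 1 or NAC 2, and 1 without PQ 2. Over all genes it was 2343 without PQ 1 and 2383 without NAC 1.

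The gene with the highest log2 fold change was Psma2, with 1463 and 1308 normalized counts in the controls, 1594 and 1586 in PQ, and 1202 and 1281 in NAC. The 3 groups did not overlap, with PQ highest and NAC lowest. Its log2 fold change in PQ against NAC was 0.36, with an interval of 0.15 to 0.56 (adjusted p = 0.00814 by edgeR's quasi-likelihood test). Psmd11 had 1083 and 1176 in the controls, 1279 and 1221 in PQ, and 947 and 1023 in NAC. Its groups kept the same order without overlap, with a log2 fold change of 0.34 and an interval of 0.14 to 0.55 (edgeR adjusted p = 0.0108). Without NAC 1 the adjusted p was 0.0868 for Psma2 and 0.11 for Psmd11, and both also lost the call without PQ 1, as did Psma2 without PQ 2. Psma5 had 946 and 979 normalized counts in the controls, 1042 and 1177 in PQ, and 922 and 897 in NAC. Psmd14 had 1509 and 1420.1 in the controls, 1504 and 1526 in PQ, and 1348 and 1182 in NAC. For both genes the NAC libraries were the lowest, and for Psmd14 the control and PQ libraries overlapped.

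The log2 differences of the other called genes were smaller, 0.29 for Psma5 (edgeR adjusted p = 0.0323), 0.27 for Psma3 (0.0314), 0.26 for Psmd14 (0.0499) and 0.25 for Psmd1 (0.0412). None of these 4 calls held with every library left out in turn. Psma5 lost its call without PQ 2 (0.296), NAC 1 or NAC 2, and Psma3 and Psmd14 lost theirs without PQ 1, PQ 2 or NAC 2 (at most 0.229 and 0.347). Psmd1 lost its call without any PQ or NAC library (at most 0.29).

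With label set as a replicate block 4 of the 6 calls in PQ against NAC were lost, those of Psma2 (adjusted p = 0.0521), Psma3 (0.129), Psmd1 (0.202) and Psmd14 (0.149), while Psma5 (0.0353) and Psmd11 (0.032) passed. DESeq2 did not call Psma5 or Psmd14, and limma called Psma2 and Psmd11 alone. In label set B alone Psma2 and Psma5 passed, and Psmc6 was called as well.

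Core genes accounted for 3 of the 6 calls (21.4% of core genes) and regulatory genes for the other 3 (17.6%), beside 31.6% of all genes tested. The core median was 0.16 with all 14 above 0, and for 11 of the 14 both PQ libraries lay above both NAC libraries. The regulatory median was 0.12 with 14 above and 3 below 0, and for 8 of the 17 both PQ libraries lay above both NAC libraries. Leaving out a library moved the core median between 0.16 and 0.17 and the regulatory median from 0.05 (without NAC 2) to 0.18 (without NAC 1). ATPase genes stood nearest to 0, with a median of 0.03. Over all 32 genes both PQ libraries were above both NAC libraries for 20 and below for 1, beside 3891 and 3898 of the 11717 genes tested. All 32 intervals lay within a 1.5-fold change, the highest bound being 1.47-fold for Psma2. The 3 comparisons share libraries, so their values are not independent of each other.

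**Figure D4:**
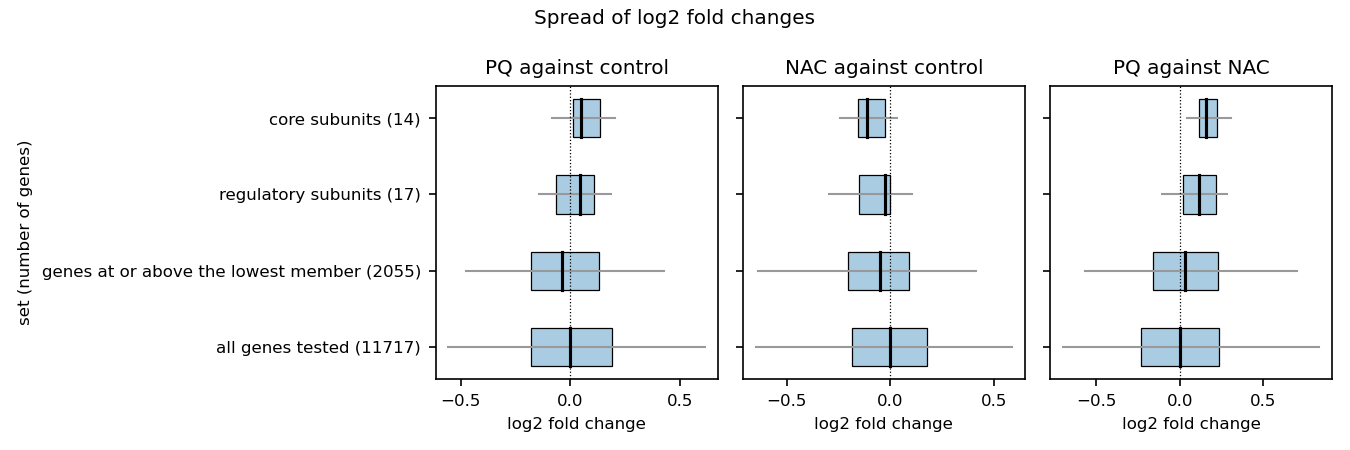
Log2 fold changes (horizontal axis) of core genes, regulatory genes, the 2055 genes expressed at or above the lowest proteasome gene, and all 11717 genes tested; boxes span the middle quartiles with the median, and whiskers the 5th to 95th percentiles. The boxes of the proteasome genes are narrower than those of the other sets in each comparison.

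Proteasome genes also varied little among themselves. The interquartile range of their log2 fold changes was 0.12 in PQ against control, 0.15 in NAC against control and 0.18 in PQ against NAC. Over all genes tested it was 0.37, 0.36 and 0.47, and over the 2055 genes expressed at or above the lowest proteasome gene it was 0.31, 0.29 and 0.39.

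Genes that work with the constitutive particle were read beside it. Of 5 genes, 4 for alternative caps and 1 for an inhibitor of the core, 2 rose in PQ against control and 0 fell (40.0%, beside 19.2% of all genes tested), with a median of 0.29. These were Psme1 and Psme2, which together form the activator cap used in antigen processing. Psme1 had 367 and 349 normalized counts in the controls, 460.5 and 486 in PQ, and 347 and 363 in NAC. Both PQ libraries were above all others, with a log2 fold change of 0.40 (edgeR adjusted p = 0.0161), which did not pass without control 2, PQ 1 or PQ 2 (at most 0.108). Psme2 had a log2 fold change of 0.40 as well (edgeR adjusted p = 0.0358), which did not pass without either control or either PQ library (at most 0.205). In NAC against control 0 of the 5 passed by edgeR, beside 18.7% of all genes tested. Of the 5, 1 had an unadjusted p under 0.05, and their median was -0.01.

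Of 9 assembly chaperones, which help build the rings and the base, 1 rose in PQ against control (11.1%, beside 19.2% of all genes tested). Both PQ libraries lay below both controls for 5 of the 9 and above both for 2. Over the 11717 genes tested, these counts were 3361 and 3424. The 1 that rose was Psmd5, a chaperone of the regulatory base, with 509 and 493 normalized counts in the controls, 684 and 718 in PQ, and 509 and 473 in NAC. Both PQ libraries stood apart from the other 4, with a log2 fold change of 0.48 (edgeR adjusted p = 0.00268, at most 0.0322 when a library was left out). The chaperones had a median of -0.10 in PQ against control and -0.03 in NAC against control. In NAC 0 of them passed by edgeR (beside 18.7% of all genes tested) and 0 had an unadjusted p under 0.05. Of 2 further regulatory subunits, Adrm1, a ubiquitin receptor docked on PSMD1, rose by 0.34 on the log2 scale in PQ (edgeR adjusted p = 0.0258, and 0.334 without PQ 1, with the call also lost without control 1).

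Of the immune and tissue-specific core subunits, which replace constitutive ones, 4 of 5 were tested, and Psma8 was not analysed here. Psmb10, which replaces Psmb7, rose by 0.48 on the log2 scale in NAC (edgeR adjusted p = 0.0462). It was the 1 of the 4 called in NAC against control, beside 18.7% of all genes tested. Psmb10 had 168 and 203 normalized counts in the controls, 232 and 211 in PQ and 220 and 299 in NAC. NAC 2 was well above the rest, and without it the adjusted p was 0.46, with the call also lost without control 1, PQ 1 or PQ 2. Psmb8, which replaces Psmb5, had 106 and 108 in the controls, 122 and 138 in PQ, and 74.8 and 79.9 in NAC. Its 3 groups did not overlap, with PQ highest and NAC lowest. Psmb8 was the 1 of the 4 called in PQ against NAC, beside 31.6% of all genes tested. Its log2 fold change in that comparison was 0.75 (edgeR adjusted p = 0.00285). Per length, the FPKM ratio of Psmb8 to Psmb5 was 0.191 and 0.197 in the controls, 0.221 and 0.275 in PQ, and 0.166 and 0.17 in NAC, in the same order as the Psmb8 counts. The 3 immune subunits made up 7.32% to 11.4% of the FPKM summed over them and the constitutive catalytic subunits, so the constitutive forms prevailed in each library.

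**Figure D5:**
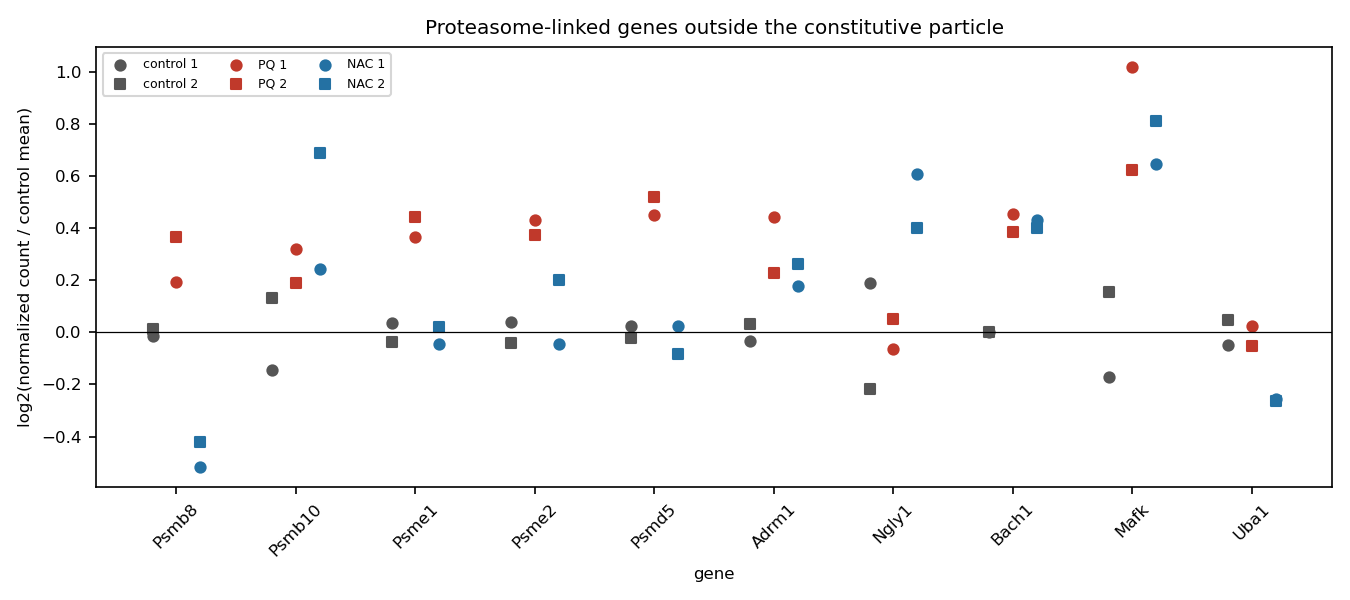
Log2 of normalized counts over the control mean (vertical axis) in each library for genes outside the constitutive particle, each of which passed in a comparison with control except Psmb8. Both PQ libraries lie above the other 4 for Psmb8, Psme1, Psme2 and Psmd5.

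Uba1, the main ubiquitin-activating enzyme, had 5260.4 and 5628 normalized counts in the controls, 5529 and 5247 in PQ, and 4565 and 4535 in NAC. Both NAC libraries were below the other 4, while control and PQ overlapped. Uba1 fell by 0.26 on the log2 scale in NAC (edgeR adjusted p = 0.0465), passing only without control 1 among the libraries left out, with at most 0.189, and its counts were fractional in all 6 libraries.

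Of 6 genes for NFE2L1 processing and turnover, 0 passed by edgeR in PQ against control, beside 19.2% of all genes tested, and 0 had an unadjusted p under 0.05. In NAC 1 rose (16.7%, below the 18.7% of all genes tested). The medians of the 6 were 0.05 in PQ and 0.09 in NAC. The 1 was Ngly1, the glycanase that edits NFE2L1 on its way to becoming active, with 146 and 110 normalized counts in the controls, 122 and 132 in PQ and 194 and 169 in NAC. Both NAC libraries were above the other 4, with a log2 fold change of 0.51 (edgeR adjusted p = 0.0401), and the call was lost without control 2 (0.276), PQ 2, NAC 1 or NAC 2. Of 8 CNC-bZIP, small MAF and KEAP1 genes, 6 were tested, with medians of 0.15 in PQ and 0.04 in NAC, and 2 passed in each comparison (33.3%, beside 19.2% and 18.7% of all genes tested). Bach1, a repressor that competes at the same element, rose by 0.42 on the log2 scale in PQ and by 0.42 in NAC (edgeR adjusted p = 0.0106 for each). Mafk, a partner of NFE2L1, rose by 0.84 in PQ (edgeR adjusted p = 0.0138) and 0.72 in NAC (0.0309), on 43.0 to 98.1 normalized counts. Bach1 lost its PQ call without PQ 1 (0.11) and its NAC call without NAC 1 (0.0799) or NAC 2, and Mafk lost its PQ call without control 1 or PQ 1 (0.204) and its NAC call without control 1 (0.171), NAC 1 or NAC 2.

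Genes of the oxidant response were read for comparison. Of 7 antioxidant genes, 3 rose in PQ and 0 fell (42.9%, beside 19.2% of all genes tested), with a median of 0.35, and 3 fell in NAC and 0 rose (42.9%, beside 18.7%), with a median of -0.24. Slc7a11, the cystine transporter, was the 1 below 0 in PQ, at -0.11 with both PQ libraries below both controls, and it was not called. Hmox1, which degrades haem, had 623 and 667 normalized counts in the controls, 1445 and 1178 in PQ, and 437 and 505 in NAC. Its groups did not overlap, and the log2 change was 1.02 in PQ (edgeR adjusted p = 7.29e-06) and -0.45 in NAC (0.0107, and 0.142 without NAC 1). Srxn1, which repairs oxidised peroxiredoxins, changed by 0.73 in PQ (edgeR adjusted p = 0.000222) and -0.46 in NAC (0.0104, and 0.133 without control 2, with the call also lost without NAC 1). Txnrd1, a thioredoxin reductase, rose by 0.35 in PQ (edgeR adjusted p = 0.00989, and 0.117 without PQ 1), and Gclc, of glutathione synthesis, fell by 0.44 on the log2 scale in NAC (edgeR adjusted p = 0.00391).

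Markers of cell state moved with the treatments as well, and their part in the proteasome values was not tested. All 8 of 8 proliferation genes fell in PQ (100%, beside 19.2% of all genes tested), with a median of -0.64 on the log2 scale. Their summed FPKM was 706 and 733 in the controls, 438 and 475 in PQ, and 864 and 805 in NAC, with Pcna the most abundant. In NAC against control 0 of these 8 passed by edgeR, beside 18.7% of all genes tested. Of the 8, 2 had an unadjusted p under 0.05, and their median was 0.14. Mki67, a marker of cycling cells, fell by 1.13 on the log2 scale in PQ (edgeR adjusted p = 5.66e-07). Proliferation genes were thus lowest in the PQ libraries, where the summed FPKM of proteasome subunits was highest. Ccnb1 and Bub1, of mitosis, lost their PQ calls without PQ 1 (adjusted p = 0.118 and 0.0554), and the other 6 kept theirs with any library left out.

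The 8 progenitor markers summed to 3290.0 and 3376 FPKM in the controls, 3682 and 3736 in PQ, and 2546 and 2475 in NAC, and Vim alone fell by 0.75 on the log2 scale in NAC (edgeR adjusted p = 3.77e-06). The sums weigh the most abundant marker, Vim, the most and do not give the direction of the list. The median log2 change of the 8 in PQ against control was -0.11, with 4 above and 4 below 0. In NAC against control it was -0.11, with 3 above and 5 below 0. Of the 8, 2 passed in PQ (25%, beside 19.2% of all genes tested), Nes at 0.34 and Sox2 at -0.35. In NAC 3 passed (37.5%, beside 18.7%), Vim, Nes at -0.28 and Sox2 at -0.31. Nes and Sox2 lost their PQ calls without PQ 1 (0.0808 for Nes) or PQ 2, Sox2 also without control 1 (0.15). In NAC, Nes lost its call without any 1 of the 6 libraries (0.0512 to 0.149) and Sox2 without control 1 (0.253), NAC 1 or NAC 2. The 4 astrocyte markers summed to 4.39 and 4.63 FPKM in the controls, 6.75 and 6.02 in PQ, and 9.64 and 9.53 in NAC. Gfap had the highest mean of the 4, but Aldh1l1 was the highest in PQ 1 and PQ 2, at 3.28 and 2.36 FPKM beside 1.77 and 1.96 FPKM for Gfap. Gfap rose by 1.23 and Aqp4 by 1.76 on the log2 scale in NAC (edgeR adjusted p = 0.000315 and 1.36e-05), and Aldh1l1 rose by 1.17 in PQ (0.0035, and 0.0912 without PQ 1). These markers did not move together, since Aldh1l1 had a log2 change of -0.49 in NAC, with both libraries below both controls, and Gfap and Aqp4 had -0.05 and -0.15 in PQ, none of them past the threshold. Neuronal markers summed to 38.0 and 35.6 FPKM in the controls, 33.4 and 34.6 in PQ, and 65.3 and 58.5 in NAC, nearly all from Map2, which rose by 0.77 in NAC (edgeR adjusted p = 1.14e-05). Tubb3, a neuronal tubulin below the filter on low values, went the other way, with 43.0 and 23.4 normalized counts in the controls, 12.5 and 8.41 in PQ, and 5.61 and 7.99 in NAC. Neurod1 had at most 3 counts in any library, and Rbfox3 was not analysed here. The 5 oligodendrocyte lineage markers summed to 331 and 339 FPKM in the controls, 322 and 278 in PQ, and 361 and 370 in NAC, led by Olig2, with Sox10 at no more than 3 counts. Pdgfra rose by 0.40 in NAC (edgeR adjusted p = 0.0109, and 0.161 without NAC 2, with the call also lost without control 1). Cspg4, below the filter on low values, went the other way, with a mean of 76.4 normalized counts in the controls, 76.9 in PQ, and 57.6 in NAC, where both libraries (54.2 and 60.9) lay below both controls (76.5 and 76.3).

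Some calls of genes outside the particle also depended on the model. With label set as a replicate block, the NAC calls of Psmb10 (adjusted p = 0.115), Uba1 (0.128), Nes (0.0938), Sox2 (0.161) and Pdgfra (0.0514) were lost. DESeq2 did not call Psme2 in PQ, Psmb10 or Ngly1 in NAC, or Mafk in either. By limma with both pseudocounts the NAC calls of Psmb10, Mafk, Uba1, Hmox1, Srxn1, Nes and Sox2 were lost. In label set B alone the PQ calls of Psme1, Psme2, Adrm1, Bach1, Mafk, Txnrd1, Nes, Sox2, Aldh1l1, Ccnb1 and Bub1 were lost. The NAC calls of Psmb10, Mafk, Uba1, Nes, Sox2 and Pdgfra were lost there too.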

How the data were processed

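For each of the 6 libraries the authors deposited a gene table with an expected count, an FPKM value and a transcript length (another unit, in bases). For set A the labels name bcl2fastq 2.17, cutadapt, TopHat2 2.0.11, Cufflinks 2.1.1 and mm9, and for set B HISAT2 2.0.4, Bowtie2 2.2.5, RSEM and mm10. In the tables, all 13817 genes found in all 6 libraries had the same transcripts (100%), and the 10547 genes with 1 transcript had equal lengths. Gene identifiers were given mouse symbols from the reference gene table (99.7% matched). Expected counts were rounded and fitted with edgeR 4.0.16 in R 4.3.3 (TMM, quasi-likelihood, all 6 libraries in 3 groups). Genes were tested where their FPKM averaged 1 or more, and p-values were adjusted by Benjamini-Hochberg over these 11717 genes, at a threshold of 0.05, with no p for any list. Normalized counts are expected counts scaled by TMM factors to the mean library size. Intervals are 95% and come from the fit, so they hold the spread between libraries. Tables were made in Python 3.11.15 with pandas 2.3.3.

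The members and lists were chosen with earlier results of these data known. All 32 genes were reported, with values per library for Nfe2l1, Psmb5, Psmb6, Psmb7 and members that passed against control. Genes of other lists were named where they passed against control or mark the locus or cell type, though not every such gene is given. Psma2, Psma3, Psma5, Psmb8, Psmc2, Psmd3, Psmd11, Psmd14 and genes named for rank or for the motif were chosen after their values were seen. Alternatives were DESeq2 1.42.0 as a test and as size factors, limma 3.58.1 on log2 FPKM plus 1 or 0.1, no filter, a 1.5-fold minimum, label set as a replicate block, the 4 libraries compared, leaving out each library, and motifs before the start only.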

Additional observations from a re-analysis of the deposited data

How the results depend on the processing

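For single genes past the threshold, all 630 values under the alternatives kept their sign, 475 still passed and 155 did not. For genes not past it, 10 of 490 values newly passed and 28, from 12 gene and comparison pairs, changed sign. The regulatory median in NAC against control changed sign as given below. Of the alternatives, label set B alone and the background of genes as highly expressed were added after seeing the data. With 1 library left in a group, that library is assumed to vary like the others.

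For PQ against control, genes called were 993 in label set B and 906 at 1.5-fold or more, and members 0 at 1.5-fold. Core medians were 0.20 in set B, and regulatory medians 0.0736 and 0.0746 by limma and 0.10 in set B. Leaving out each library gave 866 to 2206 genes, 0 to 1 members, core medians of 0.028 to 0.17 and regulatory medians of 0.0056 to 0.0878.

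For NAC against control, genes called were 1016 at 1.5-fold. Members were 1 with the block and 1 with the 4 libraries compared, and 0 by limma with either pseudocount, in set B and at 1.5-fold. By limma, with pseudocounts of 1 and 0.1, core medians were -0.0667 and -0.0672 and regulatory medians 0.0157 and 0.0158. Leaving out each library gave 1259 to 2126 genes, 0 to 2 members, core medians of -0.11 to -0.0793 and regulatory medians of -0.0815 to 0.034.

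For PQ against NAC, genes called were 1686 at 1.5-fold. Members were 2 with the block, 2 by limma with either pseudocount, 3 in set B and 0 at 1.5-fold, and the core median was 0.14 by limma with a pseudocount of 1. Leaving out each library gave 2343 to 4208 genes, 1 to 9 members, core medians of 0.16 to 0.17 and regulatory medians of 0.0522 to 0.18. The cause of these shifts was not tested, except that 1.5-fold exceeds the change of any member. Leaving out a library leaves fewer samples, yet the counts in PQ against NAC rose when a control was left out.

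With 2 libraries per group, standard errors of members were 0.0878 to 0.118 on the log2 scale, so the smallest differences in the text are within the error. Both NAC libraries are in set B, so against control 1 alone NAC and label set cannot be told apart. Transcript counts measure neither subunit protein nor proteasome activity.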
